A study of Homo sapiens with 20 samples.

Results

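The MYC enhancer locus at 8q24 was examined for H3K27ac, the acetylated form of lysine 27 on histone H3, which marks active promoters and enhancers. Its members were all H3K27ac peaks and super-enhancers (SEs) that lay inside a window of 2.5 Mb on chromosome 8 (hg38), from -1235 to +1265 kb of the MYC start site at chr8:127735434, which makes up 0.081% of the genome. An SE is a cluster of enhancers that ROSE, the program used by the authors, joined across short gaps and ranked by its signal. Intervals of different libraries that shared at least 1 bp were merged, which gave 79 elements of 58860 merged peak regions in the genome and 6 SEs of 1873. Before merging, the window held 588 of 271550 peaks and 51 of 8295 SE calls. The locus was selected on a known difference between genotypes in the calls of one of its SEs, inside PVT1, so every WT against KO value here is a description with no test.

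MYC encodes a transcription factor that drives growth and proliferation genes, and in the colon it is a target of the WNT pathway. It lies in a gene-poor stretch where enhancers far upstream and downstream contact its promoter, with different enhancers used in different tissues. CCAT1, CASC19, CASC8 and CCAT2 are non-coding RNA genes upstream of MYC, and CCAT1 is known for its high level in colorectal tumors. PVT1 is a long non-coding RNA gene that starts downstream of MYC, holds enhancers inside its own body and has a promoter that can compete with that of MYC for them. FBXW7 is the substrate receptor of an SCF ubiquitin ligase, and the MYC protein is one of its known substrates.

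The cells were HCT-116, a human colorectal cancer line, with intact FBXW7 (WT) or FBXW7-/- (KO). Neither the labels nor the methods say whether the KO line derives from 1 clone. Cells of both genotypes received an esiRNA, a pool of silencing RNAs, for 48 h, which was a control (esiCT) or targeted HDAC4 (esiHDAC4), a class IIa histone deacetylase. For the last 24 h they were treated with 50 µM oxaliplatin (OXPT), a platinum compound that damages DNA, or with its water vehicle (UNT). Each of the 8 combinations had 2 libraries, A and B, so 16 libraries were compared. The paper calls them biological replicates, and the labels state that several independent experiments were pooled without tying them to A and B. P-values therefore measure the spread between these libraries, which may be technical.

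The lists differed in length, from 1752 peaks in KO esiHDAC4 UNT B to 27927 in WT esiCT UNT A, and from 66 to 1265 SEs. The read background implied by the deposited fold and p-value, an index of depth, ran from 1.02 to 3.07 reads. WT lists had a median of 22290 peaks and KO lists of 10428, so list length moved with genotype and its part in any genotype value was not tested. The index was 1.95 reads in WT esiCT UNT A, with 27927 peaks, and 1.97 in WT esiCT OXPT B, with 10562. List length thus did not follow this index in every library, and what set it was not tested. A peak missing from a short list was not detected in that library, and a weaker peak cannot be told apart from fewer cells that carry it. All 8 epithelial marker genes had a start-site peak in at least 8 libraries, whereas 3 of 4 fibroblast and 3 of 4 blood markers had one in 0 libraries and the fibroblast marker COL1A1 had one in 3. Of all 20033 protein-coding genes, 6452 had one in at least 8 libraries and 8482 in 0, so a count of 0 was common. In the genome 472 merged regions were called in all 16 libraries. The height of a peak is given below as its summit fold, the ratio of the pileup at the summit to the local background. These folds are uncentred unless stated, and their library median over the 472 regions ran from 2.35 to 2.88 on the log2 scale. A ranking of libraries by uncentred fold therefore includes this library-wide difference.

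Of the 79 elements, 42 were called in 1 library, 20 in 2 to 7 libraries and 17 in 8 or more. The share called in 8 or more libraries was 21.5% in the locus and 18.3% over all merged regions. The 3 elements called in all 16 libraries were the one over CCAT1, one at -469 kb from the MYC start site and one in LINC00824 at +821 kb. A further 6 were called in 12 to 15 libraries, at the start sites of MYC, PVT1 and LRATD2, in CASC8, at -485 kb and inside PVT1 at +118 kb. The 6 SEs contained 36 of the 79 elements and 7 elements lay within 1 kb of a start site. In the map of the whole window these recurrent elements form a dense block between -531 and -392 kb, a second one from MYC into PVT1, and isolated sites at the edges.

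**Figure D1:**
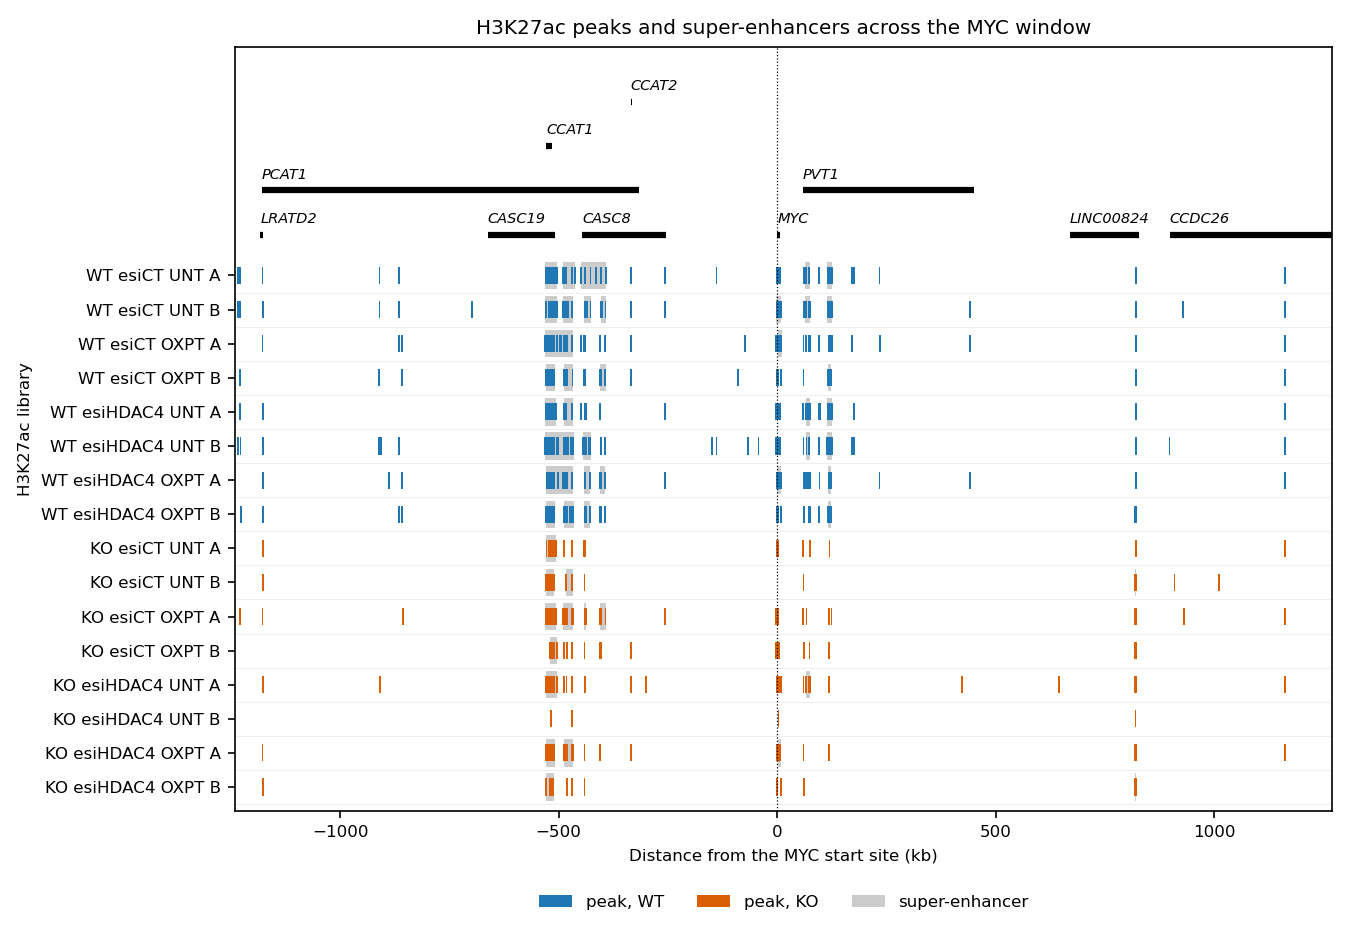
H3K27ac peaks (narrow colored bars) and SEs (gray bars) in each of the 16 libraries, against distance from the MYC start site in kb, with the genes of the window drawn above. Peaks are drawn at least 4 kb wide to be visible. The block upstream around CCAT1 and the block at MYC and PVT1 hold most of the calls, and KO esiHDAC4 UNT B had 5 peaks and 0 SEs.

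The CCAT1 SE was the most widely called of the 6. It spanned chr8:127204725-127273574, 68.85 kb in length and -531 to -462 kb from the MYC start site, and was called in 15 of 16 libraries, all but KO esiHDAC4 UNT B. The called length within it ranged from 40.8 to 65.1 kb in the 8 WT libraries, with a median of 52.4 kb, and from 17.4 to 45.5 kb in the 7 KO libraries that had it, with a median of 25.6 kb. The bases under peaks ranged from 18.7 to 39.9 kb in WT (median 29.1) and from 1.87 to 26.0 kb in KO (median 11.7). The shortest WT value lay below the longest KO value, so the genotypes overlapped.

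The largest element of the CCAT1 SE, chr8:127204725-127228059, covered the whole of CCAT1 (chr8:127207382-127219268) together with the start of CASC19. Its summit fold was lowest at 5.41, with a median of 6.63 and a highest of 8.30 over the 8 WT libraries, and 4.64, 5.42 and 6.99 over the 8 KO libraries. The highest uncentred values were those of WT esiCT UNT A and B at 8.03 and 8.30, above all other libraries. These 2 libraries also had the highest library medians of the log2 fold, at 2.88 and 2.74, so this order is not particular to the element. Covered length at this element was 13784 to 22224 bp in WT and 779 to 18832 bp in KO. Both height and length therefore overlapped between genotypes.

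Other elements of this SE were called in at least 8 libraries. The one at -485 kb (chr8:127246050-127255794) was called in 15, with a summit fold of 4.72 to 6.27 in WT (median 5.09) and 3.51 to 5.34 in KO (median 4.99). The one at -469 kb (chr8:127263335-127269839) was called in all 16, at 3.57 to 5.11 in WT (median 4.35) and 3.496 to 5.361 in KO (median 5.08). Adjacent to CASC19, the element chr8:127228348-127232472 at -505 kb was called in 9 libraries, 5 WT and 4 KO, at 2.56 to 4.89. At -469 kb the KO median was therefore the higher one, and at the other sites of this SE the WT median was, with overlap at each.

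The next SE towards MYC overlapped CASC8 and the start of POU5F1B, at chr8:127286889-127343742 (56.854 kb, -449 to -392 kb). POU5F1B is a retrogene related to the pluripotency factor gene POU5F1. This SE was called in 7 libraries, 6 WT and 1 KO, the KO library being esiCT OXPT A. The called length, summed over the calls of a library, was highest in WT esiCT UNT A at 56.9 kb and 12.159 to 27.012 kb in the other 6, of which 3 had it in more than 1 call. Its strongest element was in CASC8 (chr8:127292860-127298696, -440 kb) and was called in 15 libraries. There the summit fold was 3.67 to 7.58 in WT (median 4.91) and 3.34 to 5.44 in KO (median 4.54), with WT esiCT UNT A at 7.26 and WT esiHDAC4 UNT A at 7.58 above the rest. These values are uncentred, and the library median of the log2 fold was 2.88 and 2.67 in these 2 libraries.

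Elements at -404 and -393 kb were called mainly in WT. The element chr8:127329427-127333307 was present in 8 of 8 WT libraries and in 3 KO libraries, all 3 of them OXPT. The element chr8:127341561-127343742 was present in 7 WT libraries and 1 KO library, again KO esiCT OXPT A. Their summit folds were 2.72 to 5.02 and 2.91 to 3.56. The start site of POU5F1B itself had a peak in 1 library, and that of CCAT2, a non-coding RNA gene inside the CASC8 interval, had one in 7 libraries (4 WT and 3 KO) at 3.15 to 3.93.

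**Figure D2:**
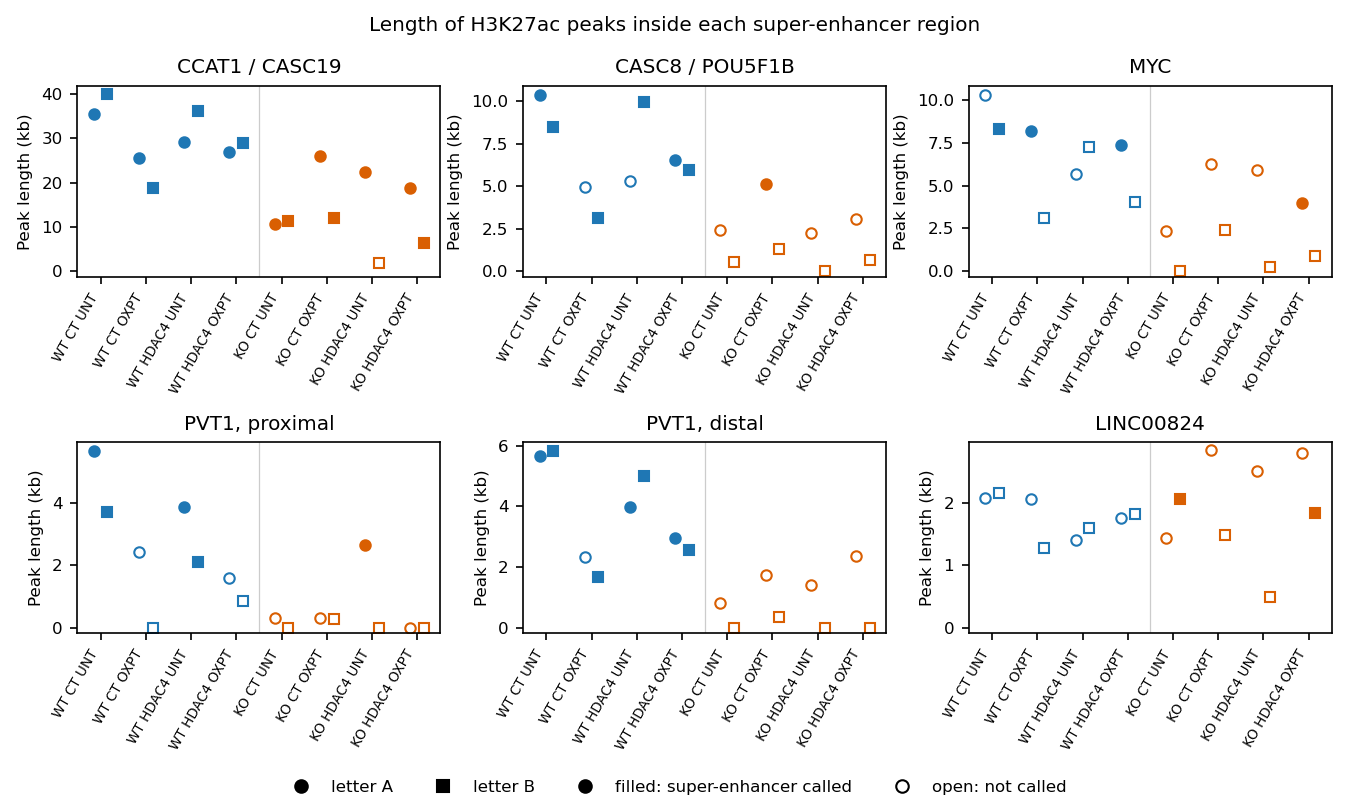
Kilobases under H3K27ac peaks within each of the 6 SEs, for each library of each group, with circles for A, squares for B and filled symbols where the SE itself was called. The distal PVT1 SE was filled in 7 WT and 0 KO libraries, and the proximal PVT1 SE in UNT libraries only.

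The plot of peak length under each SE shows that a call depended on more than the presence of peaks. At the distal PVT1 SE, 5 KO libraries had peaks but none had an SE call, and at the LINC00824 SE all 16 libraries had peaks and 2 had a call.

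The start-site element of MYC spanned chr8:127732481-127742746 and overlapped the MYC gene (chr8:127735434-127742951) and the start of CASC11, an antisense non-coding gene. It was called in 15 libraries, 8 WT and 7 KO, and was missing in KO esiCT UNT B. The summit fold was 4.48, 5.42 and 5.98 (lowest, median and highest) in WT and 4.36, 5.22 and 7.88 in KO. KO esiCT UNT A at 7.88 and KO esiHDAC4 UNT A at 6.76 exceeded every WT library, and the other KO values fell within or just below the WT range. The covered length was 2308 to 9896 bp in WT and 275 to 6240 bp in KO. These summits rested on 19 to 42 reads in WT and 12 to 41 in KO.

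The SE at MYC was called less often than its promoter peak. It spanned chr8:127732481-127745476 (12.996 kb) and was called in WT esiCT UNT B, WT esiCT OXPT A, WT esiHDAC4 OXPT A and KO esiHDAC4 OXPT A. That is 1 of 8 UNT and 3 of 8 OXPT libraries, a difference that did not pass (exact p = 0.571). A second element just past the end of MYC (chr8:127743206-127745476, +8.9 kb) was called in 9 libraries, 6 WT and 3 KO, at 2.33 to 4.48. It was present in 3 UNT and 6 OXPT libraries (exact p = 0.329).

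PVT1 (chr8:127794526-128187101) began at +59.1 kb and held elements at its start site, in a proximal SE and in a distal SE. Its start-site element, chr8:127793763-127797641, was called in 15 libraries, all but KO esiHDAC4 UNT B. The summit fold was 3.55, 4.74 and 5.89 (lowest, median and highest) in WT and 3.72, 5.32 and 7.27 in KO. In the 7 UNT libraries with a call the values were 3.55, 4.61 and 5.77, and in the 8 OXPT libraries 4.02, 5.48 and 7.27. The 3 highest values, 7.27 in KO esiCT OXPT A, 5.91 in KO esiHDAC4 OXPT A and 5.89 in WT esiHDAC4 OXPT A, were all OXPT, but the groups overlapped.

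The proximal PVT1 SE spanned chr8:127798383-127810796 (12.414 kb, +62.9 to +75.4 kb). It was called in 5 of 8 UNT libraries, namely all 4 WT UNT libraries and KO esiHDAC4 UNT A, and in 0 of 8 OXPT libraries. Whole SE lists held a median of 536.5 SEs in UNT (66 to 1265) and 417.5 in OXPT (187 to 930). The test that follows did not adjust for list length, and its part in these calls was not tested. The exact conditional test, stratified by letter, gave p = 0.0306 before and 1 after Benjamini-Hochberg adjustment over the 778 SEs that could be tested. Before adjustment 8 of those 778 SEs, or 1.03%, passed, and this was 1 of the 4 testable SEs of the locus. The length of peaks under it was 0 to 5.67 kb in UNT (median 2.38) and 0 to 2.41 kb in OXPT (median 0.294), so the groups overlapped in peak length where they did not overlap in WT calls. No peak was called under it in 2 UNT and 3 OXPT libraries.

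Its main elements were also called in fewer OXPT libraries, with no difference that passed. The element at +66.6 kb (chr8:127800364-127803780), which overlaps a PVT1 exon, was called in 5 UNT and 3 OXPT libraries, at 3.28 to 4.34 and 3.11 to 3.74. The intronic element at +73.5 kb (chr8:127807078-127810877) was called in 6 UNT and 4 OXPT libraries, at 3.31 to 5.73 and 3.24 to 4.63. Within pairs with both values the centred log2 fold was higher with OXPT in 1 of 2 at +66.6 kb and in 2 of 3 at +73.5 kb. Both elements were called more often in WT, 6 against 2 and 7 against 3 libraries.

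**Figure D3:**
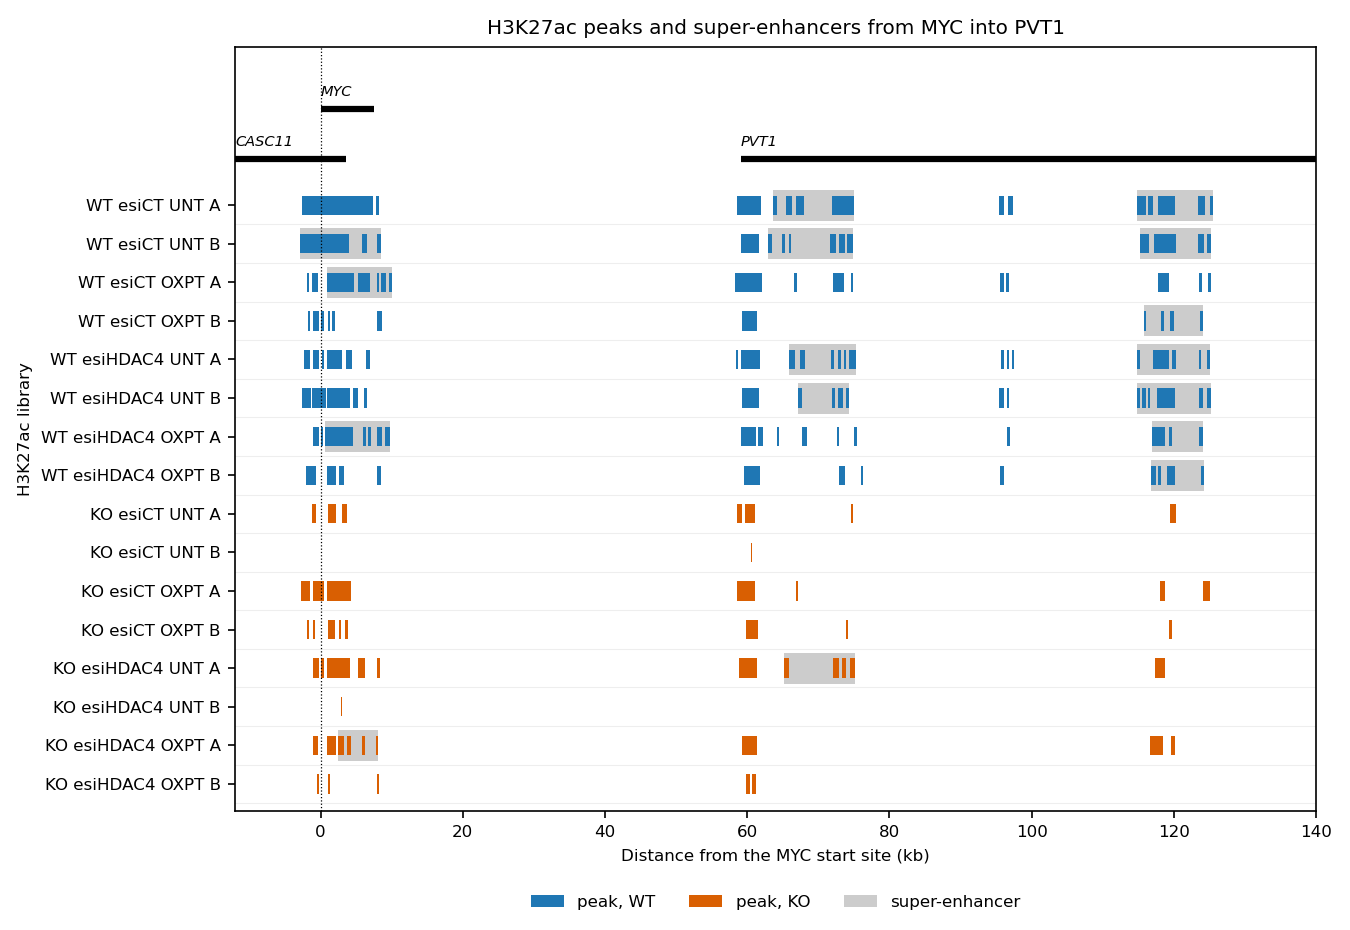
H3K27ac peaks (colored bars) and SEs (gray bars) of the 16 libraries from MYC into PVT1, against distance from the MYC start site in kb, with CASC11, MYC and PVT1 above. Peaks are drawn at least 0.25 kb wide. The SE between +62.9 and +75.4 kb appears in 5 UNT libraries, and the SE between +115 and +126 kb in 7 WT libraries.

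The distal PVT1 SE, chr8:127850202-127860973 (10.772 kb, +115 to +126 kb), was the one for which the locus was selected. It was called in 7 of 8 WT libraries, all but esiCT OXPT A, and in 0 of 8 KO libraries. Its called lengths were 7.20 to 10.7 kb (median 9.96). The length under peaks was 1.67, 3.45 and 5.82 kb (lowest, median and highest) in WT and 0, 0.574 and 2.36 kb in KO. KO esiHDAC4 OXPT A at 2.36 kb lay inside the WT range, and WT esiCT OXPT A, without an SE call, had 2.34 kb of peaks.

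Within that SE the genotypes differed by element. The element at +118 kb (chr8:127850202-127855732) was called in 8 WT and 5 KO libraries. Its summit fold was 4.17, 4.89 and 7.52 in WT and 3.71, 4.28 and 5.23 in the 5 KO libraries, with covered lengths of 1182 to 4396 bp and 342 to 2362 bp. The element at +124 kb (chr8:127858859-127860973) was called in 8 WT libraries at 3.52 to 5.66, and in KO in esiCT OXPT A alone, at 4.64. Both overlap annotated PVT1 exons. In the close map of MYC and PVT1 the WT lists show peaks at both elements of this SE, and the KO lists at the first element, at both (KO esiCT OXPT A) or at none.

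Outside these SEs all elements of PVT1 called in 2 to 7 libraries, at +95.8, +97.0, +172, +176, +234 and +441 kb, were called in WT libraries only, each in 2 to 5. Among all 20 elements of the window called in 2 to 7 libraries, 15 were called in WT only and 0 in KO only, beside 37.6 and 4.20% of all 17564 merged regions called in as many libraries.

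At the downstream edge the order was the opposite one. LINC00824, a non-coding RNA gene, had an element at +821 kb (chr8:128555286-128558170) that was called in all 16 libraries. Its summit fold was 4.32, 4.85 and 5.39 (lowest, median and highest) in WT and 3.70, 5.91 and 8.58 in KO. The KO values spread more widely, from the lowest in the shortest list, KO esiHDAC4 UNT B, to 7.03 in KO esiCT UNT B and 8.58 in KO esiCT OXPT A. The neighboring element at +819 kb (chr8:128553832-128554914) was called in 6 KO libraries and 1 WT library. The SE formed from both, 3.623 kb in length, was called in KO esiCT UNT B and KO esiHDAC4 OXPT B only.

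The outermost recurrent elements were called in both genotypes. The start site of LRATD2 and PCAT1 at -1177 kb was called in 7 WT and 6 KO libraries, with medians of 4.20 and 3.63. The CCDC26 element at +1162 kb was called in 7 WT and 4 KO libraries, with medians of 3.81 and 3.64. PCAT1 is a non-coding RNA gene first known from prostate tumors, and CCDC26 is a non-coding RNA gene downstream of LINC00824.

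Over the whole window, peaks were more numerous in WT, at 41 to 59 per library (median 47.5), than in KO, at 5 to 37 (median 25.5), with no overlap. As a share of each library's peaks, the locus held 0.178 to 0.388% in WT (median 0.217%) and 0.160 to 0.392% in KO (median 0.246%), and these ranges overlapped. On the log2 scale the share was 0.09 higher in KO than in WT, -0.29 within letter A and 0.47 within letter B. Within 500 kb of the MYC start site on either side it was lower in KO by a log2 difference of -0.37. At like list lengths, the 3 WT libraries with 19352 to 20234 peaks had 42 to 50 in the locus and the 3 KO libraries with 18343 to 21875 had 31 to 37.

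By genotype of their calls, 49 of the 79 elements (62.0%) were called in WT only, beside 45.0% of all merged regions, and 8 (10.1%) in KO only, beside 19.4%. Of the 6 SEs, 1 was called in WT only, where 40.6% of all SEs were, and 1 in KO only, where 12.1% were. The WT-only one was the distal PVT1 SE, for which the locus was selected. Further, 5 SEs of the locus, the distal PVT1 SE among them, were called in more WT than KO libraries and 1 in more KO than WT libraries, against 69.9 and 17.7% of all SEs. These counts changed with list length. When every list was cut to its 1752 strongest peaks, 14 elements remained in the window, with 3 in WT only and 2 in KO only, beside 33.9% and 29.7% of all regions, so the share of WT-only elements was above that of all regions in the deposited lists and below it in lists of equal length. Elements called in more WT than KO libraries were 67 of 79 (84.8%) in the deposited lists, beside 71.5% of all regions, and 9 of 14 (64.3%) in lists of equal length, beside 47.1%.

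Summit folds were compared next. After each library was centred on its median log2 summit fold over the 472 regions called in all 16, the KO minus WT difference was -0.22 at CCAT1, -0.21 at -485 kb, 0.22 at -469 kb, -0.21 in CASC8, 0.10 at MYC, 0.21 at the PVT1 start, -0.27 at +118 kb, 0.31 in LINC00824 and 0.01 at LRATD2. The 2 genotypes overlapped at each of these 9 elements. Over the 472 regions the median of that difference was 0.02 with quartiles of -0.12 and 0.13. The LINC00824 value lay above those of 440 of the 472 regions, and the CCAT1 value above those of 45.

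Oxaliplatin was compared with UNT over 8 libraries each. The share of peaks in the locus had a median of 0.211% in UNT and 0.221% in OXPT, a log2 difference of 0.06 that did not pass an exact permutation test within letters (two-sided p = 0.729, adjusted over OXPT and esiHDAC4 0.729). Within letter A the difference was -0.074 and within letter B 0.20. In lists of equal length the locus had 2 to 13 peaks in UNT (median 5.5) and 5 to 13 in OXPT (median 9.5), a log2 difference of 0.65 that did (exact permutation p = 0.0151, adjusted p = 0.0302). That adjustment covered the 2 contrasts and not the settings tried, and separate peaks of 1 merged element each counted. Among peaks with −log10 q of at least 10 the difference was 0.46 and did not pass (exact permutation p = 0.362). The call therefore rested on the lists that were used.

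An element whose presence differed in these lists was the PVT1 start site. Among the 1752 strongest peaks of each library it was present in 8 of 8 OXPT and in 2 of 8 UNT libraries, WT esiHDAC4 UNT B and KO esiHDAC4 UNT A (exact p = 0.0102, adjusted p = 1). Of all 2487 regions tested in such lists, 60 passed before adjustment, which is 2.41%. In a limma fit over the 4095 regions with values in at least 12 libraries and in every group of the contrast, its centred log2 summit fold was 0.42 ± 0.13 (standard error) higher with OXPT, with a 95% interval of 0.15 to 0.70. The adjusted p was 0.353 and the unadjusted p 0.0038, where 7.08% of all regions had one below the threshold of 0.05. It was higher in OXPT in 7 of 7 pairs of the same genotype, esiRNA and letter, by 0.06 to 0.90, so the direction was shared by all pairs but the change did not pass the test over all regions. KO esiHDAC4 UNT B, without a peak there, gave no pair.

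At the MYC start site the OXPT minus UNT difference in the same fit was -0.20 ± 0.12 (standard error), with a 95% interval of -0.45 to 0.06 and an adjusted p of 0.807, and it was lower with OXPT in 6 of 7 pairs, with changes of -0.66 to 0.34 and a median of -0.015. In lists of equal length it was present in 6 UNT and 4 OXPT libraries. Whether the PVT1 and MYC start sites differed from each other in their response was not tested. Values at the CASC8 element (0.20), at +118 kb (0.21), at LRATD2 (0.14) and at -485 kb (0.04) did not pass either.

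**Figure D4:**
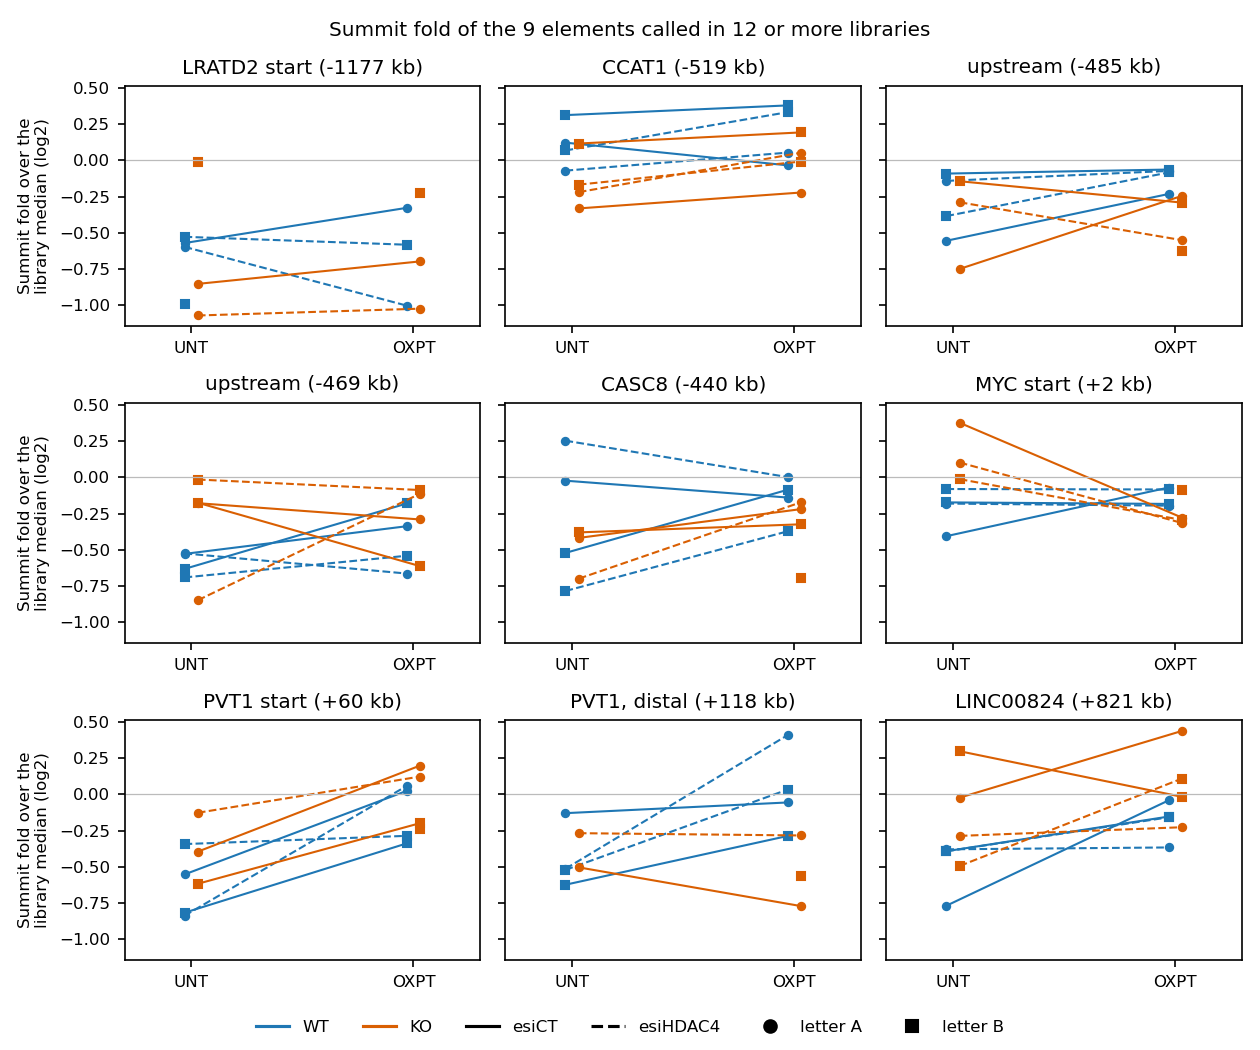
Centred log2 summit fold of the 9 elements called in at least 12 libraries, with lines that join the UNT and OXPT libraries of the same genotype, esiRNA and letter. The 0 line is the library's median over the 472 regions called in all 16 libraries. Lines rise at the PVT1 start in 7 of 7 pairs and fall at the MYC start in 6 of 7. They also rise at CCAT1 and in LINC00824 in 7 of 8 pairs each.

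In the limma fit over the 472 regions called in all libraries, which needs no missing values, OXPT differed from UNT by 0.11 ± 0.10 at CCAT1 (95% interval -0.09 to 0.32, adjusted p = 0.934), by 0.10 at -469 kb (adjusted p = 0.939) and by 0.25 ± 0.11 in LINC00824 (0.02 to 0.48, adjusted p = 0.646). The LINC00824 element was among the 34 regions, or 7.20%, with an unadjusted p below 0.05. After adjustment 0 of the 472 regions passed, a share of 0%. Without centring, the OXPT minus UNT median of all 472 regions fell to -0.15, and CCAT1 and the -469 kb element turned to -0.03 and -0.05.

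By presence, 24 of the 79 elements could be tested for OXPT and 0 had an unadjusted p below 0.05, beside 2.12% of the 20090 regions tested. The nearest was an element in PCAT1 at -858 kb (chr8:126876885-126877915), named here after its values were seen, which was called in all 4 WT OXPT libraries and in no other (exact p = 0.0918). The adjusted p was 1 throughout.

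HDAC4 silencing gave no difference that passed in the locus. The log2 share of peaks differed by -0.07, esiHDAC4 minus esiCT (exact permutation p = 0.704, adjusted p = 0.729), with 0.077 within letter A and -0.22 within letter B. In the limma fit the difference was -0.06 at CCAT1 (95% interval -0.27 to 0.15), -0.07 at -469 kb (-0.31 to 0.17) and -0.19 in LINC00824 (-0.42 to 0.04), with adjusted p-values of 0.999, 0.999 and 0.867. Of the 472 regions 21 had an unadjusted p below 0.05, or 4.45%, none of them in the locus. By presence 0 of 24 elements and 0 of 4 SEs had an unadjusted p below 0.05, beside 0.219% of all regions and 0.514% of all SEs. The distal PVT1 SE was called in 3 esiCT and 4 esiHDAC4 libraries and in none of the 4 KO esiHDAC4 ones.

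Contrasts of single groups used 2 libraries a side. In WT esiCT, OXPT differed from UNT by -0.04 at CCAT1, 0.32 at -469 kb and 0.48 in LINC00824 (limma adjusted p = 0.978, 0.815 and 0.801). LINC00824 was among the 27 regions (5.72%) with an unadjusted p below 0.05. In KO esiCT the values were 0.09, -0.28 and 0.07. The difference between these responses, KO minus WT, was 0.14, -0.60 and -0.41 (limma adjusted p = 0.981, 0.845 and 0.881). In KO cells under OXPT, esiHDAC4 differed from esiCT by 0.04, 0.35 and -0.27. For each of these 4 contrasts 0 of 472 regions passed after adjustment, and 23 to 27 had an unadjusted p below 0.05.

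SEs called in both libraries of a group were 4 in WT esiCT UNT, namely those of CCAT1, CASC8, proximal PVT1 and distal PVT1. With OXPT in WT esiCT only the CCAT1 SE was called in both. WT esiHDAC4 had 3 in UNT, without CASC8, and 3 in OXPT, without the proximal PVT1 SE. In the KO groups the CCAT1 SE was the only one called in both libraries, in 3 of the 4 groups, and KO esiHDAC4 UNT had 0. The lists of all SEs held 758 and 1265 in WT esiCT UNT (A and B) and 394 and 284 in WT esiCT OXPT. Those of KO esiHDAC4 UNT held 562 and 66. The share of all SEs called in both libraries of a group was not computed, and the part of list length was not tested. Total SE length in the locus ranged from 61.3 to 133 kb in WT and from 0 to 63.5 kb in KO, with WT esiCT UNT A at the top.

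**Figure D5:**
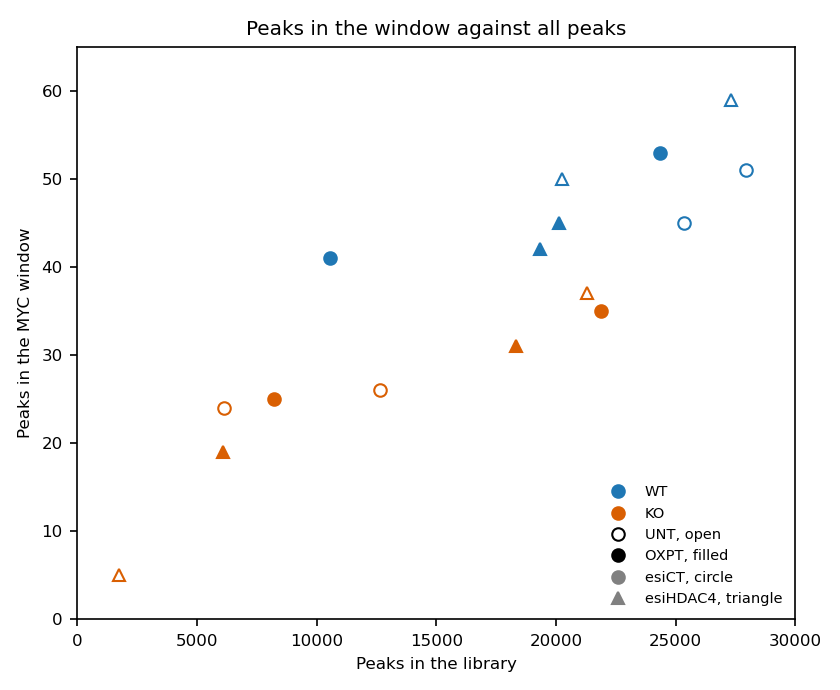
Number of H3K27ac peaks in the MYC window against the number of peaks in the whole list, 1 point per library with the genotype and treatment marked. WT libraries hold 41 to 59 locus peaks and KO libraries 5 to 37, and the lists of KO libraries are mostly shorter.

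The plot of locus peaks against all peaks shows both facts side by side: longer lists held more locus peaks, and in the lists as deposited KO libraries lay below WT libraries of like list length. In lists of equal length the ranges overlapped, at 2 to 13 peaks in WT (median 7) and 4 to 13 in KO (median 6.5), and the log2 share was 0.077 higher in KO. WT esiCT OXPT B, with 41 locus peaks among 10562, had the highest WT share.

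Start-site peaks of MYC's partners and of WNT factors were set beside the locus. Of 12 genes of the MYC network, 3 had a start-site peak in at least 8 libraries, where 6452 of all 20033 protein-coding genes did, namely MXI1 (9), MNT (8) and MLX (10), which encode repressors and a dimer partner of the network. MAX, the obligate partner of MYC, had one in 5 libraries, and MXD1, MGA and MYCN in 0. Of 8 WNT genes TCF7L2, the main nuclear WNT effector of the colon, had one in 15 libraries and AXIN2, a feedback inhibitor, in 9, while CTNNB1, LEF1 and LGR5 had one in 0. A single annotated start was used for each gene, so a count of 0 does not show that its other promoters lacked H3K27ac. The median was 5 libraries for the MYC network, 1.5 for WNT genes and 2 for all 20033 protein-coding genes, of which 8482 had a start-site peak in 0. Of the 8 and 2 genes that could be tested, 0 had an unadjusted p below 0.05 for either OXPT or esiHDAC4, where 66 and 15 of 9139 genes did. MNT, with 6 UNT and 2 OXPT libraries, had an exact p of 0.0918.

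Genes whose start-site calls matched those of MYC in all 16 libraries were 22 of 20030, the first by position being AP1S3, IRS1 and TADA3. For the distal PVT1 SE no other SE matched in 16 libraries, and 5 of 1867 matched in 15. The first 3 by position were nearest to DNASE2B (chr1:84338748-84380524, 7 WT and 1 KO libraries), LRRC17 (chr7:102977922-102994424, 6 and 0) and CDKN3 (chr14:54166790-54189859, 7 and 1).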

How the data were processed

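H3K27ac ChIP-seq lists of 16 HCT-116 libraries were analysed, and 4 input samples were not used here. The authors used Trimmomatic 0.39 for trimming and Bowtie2 2.4.4 for alignment to hg38, removed duplicates with SAMtools 1.18, called peaks per library with MACS2 2.2.7.1 and stitched SEs with ROSE. The deposited peak lists give the fold (the ratio of summit pileup to local background), −log10 p-values and q-values and an integer score made from q. The deposited SE lists hold positions only, and the study considered only SEs that also carried H3K4me1, without saying whether these lists were already so filtered. Without read counts no count model was fitted.

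Intervals were merged at 1 bp overlap, and 533 peaks on other contigs were left out. Genes came from GENCODE release 44, and CCAT1 from RefSeq. The value of 1 marker gene is not reported here. A start-site peak lay within 1 kb of the outermost annotated start of the gene, and peaks at other promoters of a gene were not counted. Elements named were all SEs, all elements called in at least 8 libraries and those at start sites. Background reads were solved from fold and p with a tolerance of 0.01 on −log10 p. Log2 summit folds were centred per library and tested with limma 3.58.1 (R 4.3.3), with 8 group means and the replicate letter as terms. Presence was tested for regions called in 3 to 13 libraries, with an exact conditional test stratified by letter, and shares (with 0.5 added to the locus count) with two-sided exact permutation tests. P-values across regions were adjusted by Benjamini-Hochberg over all regions tested, and those of shares over the 2 contrasts tested, with a threshold of 0.05. Scripts were tested on simulated data. The letter was kept as a term because the study's design holds replicate to account for a batch between replicates. The deviations of same-letter libraries from their group means correlated at -0.06 to 0.39 over the 28 pairs of groups, with 12 above 0.1, so the pairing by letter comes from the study's methods and was seen in fewer than all pairs of groups. The locus, its members and the gene lists were chosen with earlier results of these data known. Alternatives were lists of equal length, −log10 q of at least 10, merging within 500 bp, no centring, regions called in at least 12 libraries, a narrower window, no letter term and leaving out each library. Precision is limited by depth and by 2 libraries a group.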

Additional observations from a re-analysis of the deposited data

Results flagged for a closer look

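For 5 of 24 effects compared between genotypes (20.8%), both WT pairs moved one way and both KO pairs the other. Each is a comparison of 2 pairs a genotype, the difference was not tested unless stated, and no cause was tested. Neither the share over all regions nor the share to be expected without a genotype difference was computed. Several of the 5 effects use the same libraries, so the count does not show a trait of the locus.

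The log2 share of peaks in the locus rose with OXPT in WT esiCT, by 0.25 in letter A and 1.13 in letter B, and fell in KO esiCT, by 0.37 in both, a KO minus WT difference of -1.06. The WT esiCT OXPT B list was the shortest of the WT lists, at 10562 peaks. With esiHDAC4 in UNT the share rose by 0.44 and 0.28 in WT and fell by 0.25 and 0.35 in KO, a difference of -0.66. Both effects are taken from the same esiCT UNT libraries, so they are not independent. The share there was 0.183 and 0.178% in WT (A and B) and 0.206 and 0.392% in KO.

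At the element at -469 kb the centred log2 summit fold rose with OXPT in WT esiCT, by 0.19 and 0.45, and fell in KO esiCT, by 0.11 and 0.44. The difference of -0.60 was tested by limma and did not pass (adjusted p = 0.845). Under OXPT the same element fell with esiHDAC4 in WT, by 0.33 and 0.36, and rose in KO, by 0.18 and 0.53, a difference of 0.70. These share the OXPT esiCT libraries.

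At the PVT1 start under OXPT, esiHDAC4 moved the summit fold by 0.03 and 0.05 in WT and by -0.08 and -0.04 in KO, a difference of -0.10 that is smaller than the spread between libraries of a genotype (SD 0.34 in WT and 0.28 in KO).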

How the results depend on the processing

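The number of locus elements called on summit fold was 0 for all 6 contrasts under each of 20 alternatives. For the share of peaks, OXPT minus UNT was 0.65 in lists of equal length, where it passed (exact permutation p = 0.0151). It was 0.46 with −log10 q of at least 10 and 0.22 within 500 kb of MYC, and passed in neither (exact permutation p = 0.362 and 0.204). It ran from -0.036 to 0.18 when each library was left out, turning to -0.036 without WT esiCT OXPT B. The share for esiHDAC4 turned to 0.23 with −log10 q of at least 10 and to 0.10 in lists of equal length, and ran from -0.15 to 0.033 with each library left out, turning to 0.029 without WT esiCT OXPT B and to 0.033 without KO esiCT UNT B. The KO minus WT share was -0.37 within 500 kb of MYC and ran from -0.0091 to 0.20 with each library left out. The count of elements with a presence p below 0.05 for OXPT was 1 in lists of equal length (the PVT1 start) and 0 to 1 with each library left out, the 1 being the PCAT1 element at -858 kb without any one of the 4 KO OXPT libraries. Without the replicate block the share had exact permutation p = 0.779 for OXPT and 0.761 for esiHDAC4, and the block changed no call.

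CCAT1 and the -469 kb element had OXPT values of -0.033 and -0.052 without centring. With each library left out the latter ran from -0.013 to 0.19 for OXPT and from -0.18 to 0.041 for esiHDAC4, turning to -0.013 and 0.041 without KO esiHDAC4 UNT A. The cause was not tested. The PVT1 start kept its OXPT direction, at 0.25 without centring and 0.33 to 0.54 with each of 15 libraries left out, the fit without KO esiHDAC4 UNT A giving no value for it (limma adjusted p 0.113 to 0.595), as did the proximal PVT1 SE (exact p 0.00612 to 0.0306). The last 2 sets, and the WT and KO counts below, were chosen after seeing the data. Elements called in WT only were 7 of 13 with −log10 q of at least 10, where 67.6% of all regions were, 28 of 56 within letter A (36.4% of all) and 40 of 57 within letter B (71.4% of all). Elements in KO only were 0 (6.02% of all), 7 (24.1%) and 2 (6.12%). A median shift of all regions without centring was -0.15 for OXPT and -0.40 for OXPT in WT esiCT, where 52 of 472 regions then passed, none in the locus. What a missing peak shows is limited, since background ran from 1.02 to 3.07 reads and list length from 1752 to 27927 peaks.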

Other observations

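The local background under the peaks, as a ratio to the median peak background of the same library, was lower at the distal PVT1 elements than at the other 15 elements called in at least 8 libraries. It was 0.970 at the median for the element at +118 kb (0.848 to 1.38 over 13 libraries) and 0.924 for the one at +124 kb (0.783 to 1.13 over 9). It was also low further into PVT1, where the 6 elements between +172 and +235 kb, each called in 1 to 3 libraries, had medians of 0.769 to 1.09. The median was 1.57 at CCAT1, 1.65 at -469 kb, 1.60 in CASC8, 1.43 at MYC, 1.74 at the PVT1 start, 1.58 in LINC00824 and 1.99 at LRATD2. Over all locus peaks it was 1.42 to 1.67 in each of the 16 libraries, and 1.42 to 1.65 in WT beside 1.49 to 1.67 in KO. The background of a peak was computed by the authors' peak caller, and what raises it across most of the window was not tested.

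Peaks of the locus were shared between the libraries of a group to different degrees. In WT esiCT UNT, 25 of 45 elements were called in both libraries, and in KO esiHDAC4 UNT 4 of 20 were. In KO esiHDAC4 OXPT 10 of 14 were, and in KO esiCT UNT 7 of 15. The 2 lists of KO esiHDAC4 UNT held 21290 and 1752 peaks, with 37 and 5 in the locus, which limits how many elements they can share. The same shares over all merged regions were not computed, so these counts describe the lists and not a trait of the locus.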
